A study of Mus musculus with 15 samples.

Results

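Bone marrow-derived macrophages (BMDMs) of STAT5 cKO mice were compared after 2 h in 20 ng/mL recombinant mouse GM-CSF (rmGM-CSF) and after 2 h in serum-free DMEM alone, to describe the part of the GM-CSF response that is seen in cells without STAT5. The comparison takes 6 of the 15 RNA-seq libraries of the series, 3 with rmGM-CSF and 3 with DMEM, which were picked by genotype and treatment in the library names. The comparison and the gene lists below were chosen with earlier results of these data known. Each of the mice numbered 114, 115 and 116 gave 1 library per treatment, so the libraries form 3 pairs. The mice were 6 wk old and of the BALB/c strain, and they carried Stat5 alleles flanked by loxP sites together with Csf1r-iCre, a transgene that the promoter of the M-CSF receptor gene drives in myeloid cells. The comparator was the same treatment in BMDMs of 2 STAT5 fl/fl mice (numbers 112 and 113, same strain and age, floxed alleles), which gave 4 libraries. A replicate of STAT5 fl/fl was removed by the authors at quality control and is not analysed here. Csf1r-iCre is not specific to macrophages, but the cells sequenced here were macrophages grown from marrow in culture.

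GM-CSF binds a receptor made of a specific alpha chain, Csf2ra, and a beta chain, Csf2rb, which is shared with the IL-3 and IL-5 receptors. The kinase JAK2 sits on the beta chain and phosphorylates STAT5, which enters the nucleus and induces genes such as Cish and Pim1, while other docking sites on the receptor lead to the RAS-ERK and PI3K pathways and to NF-kB. In macrophages GM-CSF is known to prolong survival and to raise the production of inflammatory cytokines and chemokines.

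The deleted genes were checked first. Stat5a (ENSMUSG00000004043) had 2, 2 and 0 counts with DMEM and 1, 3 and 2 with rmGM-CSF in the STAT5 cKO libraries of mice 114, 115 and 116, against 637 and 719 with DMEM and 723 and 799 with rmGM-CSF in STAT5 fl/fl. Stat5b (ENSMUSG00000020919) had 1, 0 and 2 counts with DMEM and 1, 4 and 1 with rmGM-CSF, against 1442 and 1654, and 977 and 1147, in STAT5 fl/fl. Both genes were thus at or about the floor of 3 counts in the 6 STAT5 cKO libraries. The receptor genes were well expressed in the same cells. Csf2rb had 559, 584 and 623 normalized CPM (counts scaled to a fixed total after normalization between libraries) with DMEM, Csf2rb2, its close paralog, had 483, 468 and 499.7, and Csf2ra had 234, 211 and 194. Library totals lay between 16016736 and 22877322 counts, so that 1 CPM stood for 16.0 to 22.9 counts, and the smallest total was that of mouse 116 with rmGM-CSF. The 9 macrophage markers checked, among them Adgre1, Csf1r, Cd68 and Lyz2, summed to 33674 to 39253 CPM with DMEM and 34807 to 37298 with rmGM-CSF, ranges that overlap, and Lyz2 made up most of each sum. Of the 9, Cd14, a co-receptor for endotoxin, rose (log2 fold change 0.91, from 1168, 1179 and 1208 to 2235, 2230.3 and 2235 normalized CPM) and Mertk, a receptor for the uptake of dead cells, fell (-0.78, from 22.97, 26.0 and 25.6 to 12.5, 14.6 and 16.7), and the other 7 did not pass. All 5 erythroid markers were at or under 3 counts in each of the 6 libraries, as were 7 of 8 lymphocyte, 4 of 5 mast cell and basophil and 5 of 9 neutrophil markers. Ly6g and Cd3e were among these. The remaining lymphocyte marker, Cd4, had 160, 144 and 175 counts with DMEM and 123, 130 and 102 with rmGM-CSF, and did not pass. It made up most of the lymphocyte sum, which was 6.79 to 8.08 CPM with DMEM and 5.81 to 6.37 with rmGM-CSF, without overlap. The 7 stromal markers summed to 15.6 to 17.0 CPM with DMEM and 11.0 to 12.8 with rmGM-CSF, and the 7 dendritic cell markers to 1.88 to 2.60 and 3.28 to 3.85, both without overlap. Most of the difference in the stromal sum lay in Pdgfrb, a receptor for PDGF, which fell from 231, 256 and 235 counts to 153, 146 and 81, while Col1a1, Col1a2 and Dcn overlapped between the treatments. The part that these small levels play in the results below was not tested.

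In STAT5 cKO BMDMs rmGM-CSF changed 3314 of 13005 tested genes, 25.5%, with 1862 higher (14.3%) and 1452 lower (11.2%). The genes tested had more than 1 CPM in at least 2 libraries, and a gene was called at an adjusted p-value under 0.01 (edgeR quasi-likelihood F test with the mouse as a block, Benjamini-Hochberg adjustment over all tested genes, no minimum fold change). All 3314 called genes moved in 1 direction in 3 of 3 mice, which a call in a test paired by mouse nearly requires, so the count is no separate support. Most changes were small, with a median size of 0.50 on the log2 scale among called genes. The large ones were mostly increases. By more than 2-fold, 392 genes rose and 168 fell, and by more than 4-fold 131 rose and 16 fell. The 3 rmGM-CSF and 3 DMEM libraries did not overlap for 3271 of the called genes, which reads against 6268 non-overlapping genes (48.2%) among all tested. RNA of a whole culture was measured, so that a lower level can mean fewer cells that express a gene or less RNA per cell. No sample label says whether the mice were littermates or were cultured on 1 day. The p-values rest on a spread estimated in 1 fit of all 15 libraries of the series, not on these 3 mice alone.

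Among called genes whose treatments did not overlap, the 10 increases with the smallest p-values were those of Socs3, Cxcl2, Gpr84, Acod1, Cxcl1, Ehd1, Jag1, Tnf, Nlrp3 and Nfkbie. Socs3 (ENSMUSG00000053113, chromosome 11, 117966079 to 117970047 of GRCm38) encodes a feedback inhibitor of cytokine receptors and had 2.34, 2.17 and 2.68 normalized CPM with DMEM in mice 114, 115 and 116, against 162, 181 and 169.6 with rmGM-CSF. All 3 stimulated libraries were far above the unstimulated ones, and the log2 fold change was 6.15 (SE 0.10, adjusted p = 1.2e-18). Cxcl1 and Cxcl2, chemokines that attract neutrophils, rose as steeply. Cxcl1 (ENSMUSG00000029380, chromosome 5, 90891241 to 90893115) went from 1.56, 1.13 and 1.52 to 154, 138 and 126 normalized CPM, the largest log2 fold change among called genes (6.63, SE 0.18). Cxcl2 (ENSMUSG00000058427, chromosome 5, 90903871 to 90905938) went from 5.65, 3.91 and 5.14 to 295, 288 and 272 (log2 fold change 5.87, SE 0.11). Tnf, the inflammatory cytokine, reached the highest level of the 10, at 704, 716 and 729 normalized CPM from 21.5, 23.3 and 26.3. Its 3 stimulated libraries lay close together, and its log2 fold change was 4.92 (SE 0.10, adjusted p = 2.82e-16). Acod1, the enzyme that makes itaconate, had 9.23, 12.7 and 14.6 normalized CPM with DMEM and 438, 614 and 560.4 with rmGM-CSF. Mouse 114 was the lowest in both treatments. The remaining genes of the set encode a surface receptor, a sensor, a ligand and a trafficking protein. Gpr84, a receptor for medium-chain fatty acids, rose from 6.62, 9.26 and 7.37 to 107, 135 and 112.8. The inflammasome sensor Nlrp3 rose from 56.8, 47.8 and 55.7 to 472, 517 and 489. Jag1, a ligand of Notch receptors, rose from 16.8, 18.8 and 15.2 to 169, 213.7 and 171. Ehd1, which acts in endosome recycling, was already expressed at 78.8, 71.4 and 77.8 and reached 576, 588 and 589.5. Lack of overlap was a condition of the choice of these genes, and of the lists by size and of decreases that follow.

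By size of the change, with no overlap and at least 10 normalized CPM in the higher treatment, the list was led by Cxcl1, Mir155hg, Socs3, Cxcl2, Acod1, Il1b, Tnf, Ptgs2, Gbp5 and Tnfsf9. Mir155hg, the host transcript of miR-155, was near the floor with DMEM (0.138, 0.174 and 0.370 normalized CPM) and had 20.3, 20.5 and 19.9 with rmGM-CSF, close values in the 3 mice. Ptgs2, which encodes cyclooxygenase-2, went from 1.19, 1.70 and 1.28 to 27.3, 30.5 and 29.2 (log2 fold change 4.38). Gbp5, a guanylate-binding protein of host defense, went from 2.34, 2.61 and 3.54 to 45.6, 56.3 and 60.1 (4.26). Neither gene had overlapping treatments, which the choice required. Tnfsf9, the ligand of 4-1BB, went from 2.34, 2.48 and 2.72 to 44.5, 48.9 and 51.5 (4.26).

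**Figure D1:**
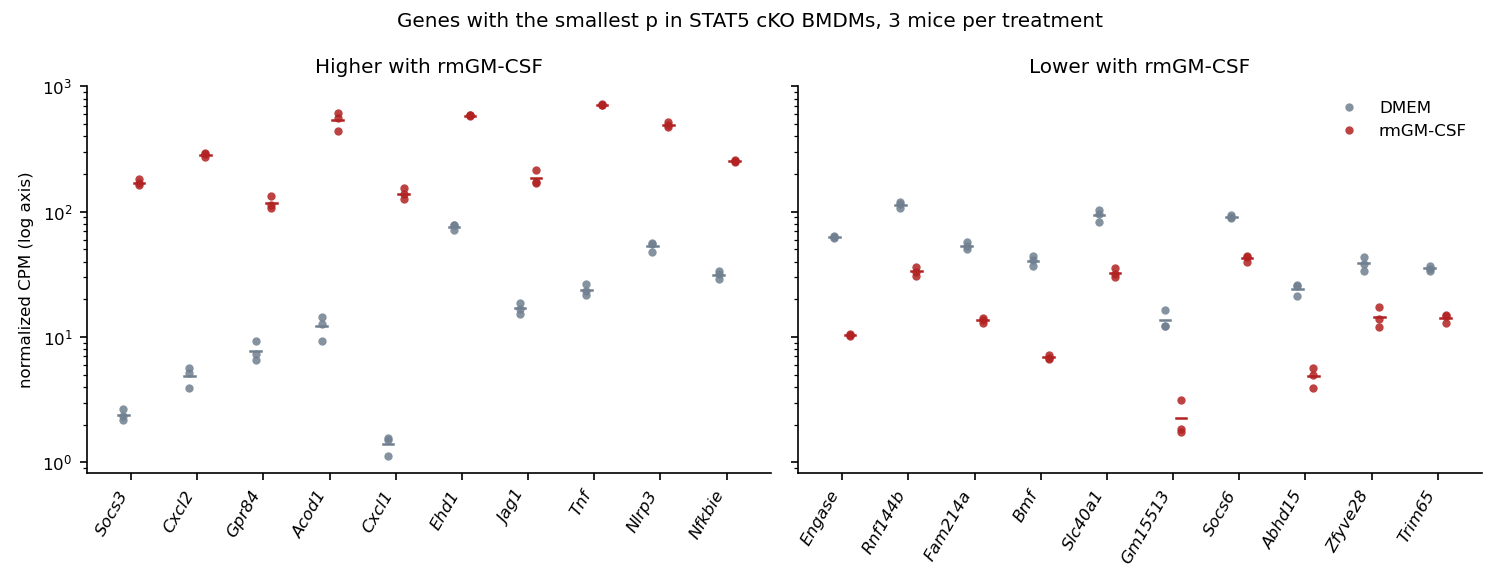
Normalized CPM (log axis) of the 10 genes per direction with the smallest p-values in STAT5 cKO BMDMs, with 1 point per mouse and a line at the mean of 3 mice, for DMEM and rmGM-CSF. The treatments do not overlap for any gene shown, which was a condition of the choice. The increases span wider ranges than the decreases, as with Socs3, which rose by 6.15 on the log2 scale, and Engase, which fell by 2.59.

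Among the decreases without overlap, those with the smallest p-values included Engase, Rnf144b, Fam214a, Bmf, Slc40a1 and Socs6. Engase, a glycosidase of the cytosol that removes N-glycans, had 63.8, 61.4 and 62.5 normalized CPM with DMEM and 10.2, 10.6 and 10.47 with rmGM-CSF. These libraries were tight within each treatment, and the log2 fold change was -2.59 (SE 0.086, adjusted p = 7.63e-14). Bmf, a BH3-only protein that promotes apoptosis, fell from 36.6, 44.5 and 41.1 to 7.21, 6.82 and 6.70 (log2 fold change -2.55, SE 0.12). Rnf144b, a ubiquitin ligase, went from 119, 114.7 and 107 to 36.3, 30.9 and 32.9 (-1.77, SE 0.071). Slc40a1 encodes ferroportin, the exporter of iron from macrophages, and went from 95.8, 82.3 and 103 to 31.9, 30.4 and 35.4 normalized CPM (-1.52, SE 0.075). No stimulated library of these genes reached the lowest DMEM value, as the choice required. Fam214a fell by 1.98 on the log2 scale, Abhd15, a hydrolase-fold protein, by 2.32, Zfyve28 by 1.42, Trim65 by 1.31 and Socs6, a further member of the SOCS family, by 1.08. By size, Arhgap19, Sox4, Arrdc3, Lrrc14b and Lpar5 were also among the 10 largest decreases. Sox4, a transcription factor, had 35.6, 30.1 and 24.3 normalized CPM with DMEM and 7.21, 4.72 and 5.24 with rmGM-CSF. Arrdc3, an arrestin-like adaptor, had 38.2, 32.3 and 31.5 with DMEM and 8.68, 6.95 and 5.87 with rmGM-CSF. Lpar5, a receptor for lysophosphatidic acid, fell from 23.3, 24.1 and 21.4 to 7.70, 6.11 and 5.75. Mouse 114 had the highest treated value for Sox4, Arrdc3 and Lpar5. Both lists of decreases also held a predicted gene, Gm15513, which went from 16.3, 12.3 and 12.3 to 3.14, 1.74 and 1.85.

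NF-kB proteins are held in the cytosol by inhibitors of the IkB family, several of which NF-kB itself induces as feedback. Of the 16 tested genes of NF-kB subunits, IkB-related proteins and feedback inhibitors, 15 rose and 1 did not pass. Their median log2 fold change was 1.42, where the median over all tested genes was -0.0038 and 14.3% were called higher. The largest increases were those of Tnfaip3, Nfkbiz, Nfkbie and Nfkbia, none of them a subunit, while Tnip2 and Cyld had smaller values than any subunit. Tnfaip3, the deubiquitinase A20, had 43.9, 39.4 and 39.5 normalized CPM with DMEM and 379, 378 and 352 with rmGM-CSF (log2 fold change 3.18, SE 0.074). Nfkbiz went from 52.1, 37.5 and 41.4 to 401, 364 and 343 (3.09). Nfkbie went from 32.0, 29.2 and 33.5 to 249.6, 257 and 252 (3.005), with stimulated libraries that nearly coincide. Nfkbia, the gene of the classical IkB alpha, started higher and went from 89.8, 99.0 and 103 to 589.6, 597 and 621 (2.63). None of these genes had overlapping treatments. Among the subunits Nfkb2, Relb and Rel had log2 fold changes of 1.44, 1.44 and 1.403, Nfkb1 one of 1.13 and Rela, which moved least of the subunits, one of 0.70. Bcl3 (2.36), Tnip3 (2.33), Tnip1 (1.39), Nfkbid (1.13), Nfkbib (1.04) and Tnip2 (0.26) rose too. Cyld, a deubiquitinase that restrains the pathway, had 69.6, 64.9 and 67.01 normalized CPM with DMEM and 73.0, 71.4 and 72.3 with rmGM-CSF and did not pass (log2 fold change 0.11, 95% interval -0.016 to 0.23). Of the 15 called genes, 4 (Rel, Relb, Nfkb2 and Bcl3) rose less than in STAT5 fl/fl by the test of the interaction. Over all tested genes 4.04% differed in either direction, and of all genes called higher in STAT5 cKO 10.7% rose less. For 10 of the 15 NF-kB genes the 95% interval of the difference between genotypes lay within 0.5 on the log2 scale either way. The same held for 1711 of all 3314 genes called in STAT5 cKO.

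Promoters of 3 of these strongly induced genes are given for their kB motifs. The windows run from 250 bases before to 50 after the RefSeq gene start, on GRCm38.p6, 5′ to 3′ in the direction of transcription. Capitals mark matches, on either strand, to a kB motif of GGG, any 2 bases, TT, any base and CC, a form chosen after the data had been seen, because GGG and CC with any 5 bases between them matched 50.8% of the 32851 promoters in the table and the form marked here matched 4.79%.
Cxcl1 (chr5:90890995-90891294, plus strand): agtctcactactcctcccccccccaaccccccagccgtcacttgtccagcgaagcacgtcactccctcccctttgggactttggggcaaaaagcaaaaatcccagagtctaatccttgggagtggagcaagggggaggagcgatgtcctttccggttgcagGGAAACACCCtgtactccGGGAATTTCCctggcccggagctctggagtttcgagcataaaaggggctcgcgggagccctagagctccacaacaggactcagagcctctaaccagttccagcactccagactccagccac
Cxcl2 (chr5:90903649-90903948, plus strand): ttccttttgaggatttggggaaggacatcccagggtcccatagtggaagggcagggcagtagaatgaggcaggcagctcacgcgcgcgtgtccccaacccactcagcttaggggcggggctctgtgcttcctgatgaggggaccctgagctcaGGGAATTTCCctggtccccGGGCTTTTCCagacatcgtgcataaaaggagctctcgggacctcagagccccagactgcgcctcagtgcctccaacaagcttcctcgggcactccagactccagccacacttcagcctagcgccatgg
Nfkbia (chr12:55492598-55492897, minus strand): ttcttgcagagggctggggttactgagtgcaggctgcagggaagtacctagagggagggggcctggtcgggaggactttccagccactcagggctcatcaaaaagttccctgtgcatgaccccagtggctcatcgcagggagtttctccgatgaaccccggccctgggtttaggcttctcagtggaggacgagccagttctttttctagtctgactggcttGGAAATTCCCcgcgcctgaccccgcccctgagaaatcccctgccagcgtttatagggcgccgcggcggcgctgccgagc
The Cxcl1 and Cxcl2 windows held 2 matches each and the Nfkbia window 1. A match is a run of letters and was not measured as a site of binding. Motif shares were not compared between gene groups, because 71.9% of the tested genes had a promoter entry.

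Of 11 tested inflammatory cytokine genes, 8 rose and 3 did not pass (median log2 fold change 1.69), where 14.3% of all tested genes rose. Il1b, which encodes the IL-1 beta precursor, had 12.4, 9.09 and 14.8 normalized CPM with DMEM and 392, 389 and 355 with rmGM-CSF (log2 fold change 4.97, SE 0.13, adjusted p = 6.47e-15). Il1a went from values near the floor (0.0919, 0.348 and 0.247) to 7.55, 10.96 and 9.002 (5.28). Il1rn, the antagonist of the IL-1 receptor, went from 33.4, 39.3 and 35.97 to 105, 129 and 118 (1.69). Agonists and antagonist of the IL-1 receptor thus rose together. Il27 (2.42), Ebi3 (0.33) and Tgfb1 (0.27) were also higher. Osm, Il18 and Il10 did not pass, with log2 fold changes of 0.040 (95% interval -0.22 to 0.30), -0.40 (-0.90 to 0.10) and 0.11 (-0.86 to 1.08). Il6, Il12a, Il12b, Il23a and Lif were below the filter on low counts and were not tested.

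Chemokines followed the same direction with a wider spread of sizes. Of 19 tested genes 15 rose and 4 did not pass (median log2 fold change 1.84, or 1.91 with genes near the floor taken at their lower bound and Ccl17 left out), against 14.3% higher over all tested genes. Besides Cxcl1 and Cxcl2, Cxcl3 rose from 1 to 3 counts per library with DMEM to 6.76, 7.09 and 5.55 normalized CPM, at least 49.5-fold against the floor of 3 counts averaged over the DMEM libraries. The monocyte attractants were induced from low levels to low levels. Ccl2 had 0.965, 0.391 and 0.370 normalized CPM with DMEM and 9.61, 8.69 and 11.9 with rmGM-CSF (4.13). Ccl7 had 0.184, 0.174 and 0.329 with DMEM and 1.67, 2.05 and 2.55 with rmGM-CSF (3.13). Ccl12 rose at least 8.69-fold, to 1.27, 0.981 and 1.15. Ccl3 and Ccl4 were expressed before stimulation. Ccl3 went from 47.0, 40.5 and 50.7 to 168, 183 and 194 (1.98). Ccl4 went from 15.99, 15.01 and 18.8 to 57.2, 57.2 and 63.1 (1.84). Ccl9, the most abundant of the list, went from 567, 506 and 537 to 1298, 1218 and 1113 (1.17). Cxcl10 (2.32), Cxcl11 (2.34), Ccl22 (1.79), Cxcl16 (0.64), Ccl6 (0.43) and Cxcl14 (0.27) were higher as well. Ccl17, a chemokine for T cells, had at most 1 count in each of the 6 libraries, whereas it reached 24.7 and 21.8 normalized CPM with rmGM-CSF in STAT5 fl/fl. Ccl5 had 3.905, 5.74 and 4.69 normalized CPM with DMEM and 11.1, 14.98 and 14.4 with rmGM-CSF, without overlap, but did not pass (adjusted p = 0.0855). Pf4 and Ccl24 did not pass either.

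Signalling through RAS and ERK induces early genes of the EGR and AP-1 families and its own inhibitors, the DUSP phosphatases and the Sprouty and SPRED proteins. Of 17 tested feedback inhibitors and ERK targets, 13 rose and 4 did not pass (median log2 fold change 1.21), where 14.3% of all tested genes rose. Dusp2 went from 2.11, 2.26 and 2.26 to 16.7, 18.5 and 19.98 normalized CPM (log2 fold change 3.05). Dusp4 went from 41.8, 48.4 and 43.3 to 230.1, 262 and 246 (2.47). Dusp1 went from 12.1, 14.1 and 14.2 to 66.0, 69.4 and 57.5 (2.25). The treatments did not overlap for any of these phosphatases. Spred1, an inhibitor of RAF activation, had 115.9, 93.9 and 86.02 with DMEM and 340.4, 359 and 363 with rmGM-CSF (1.85), the highest level among those that rose. Phlda1 (2.99), Dusp5 (2.54), Spred2 (1.77), Errfi1 (1.66), Etv5 (1.21), Dusp16 (1.14), Dusp6 (1.06), Spry2 (0.73) and Dusp7 (0.59) rose, while Dusp3, Dusp8, Dusp10 and Spred3 did not pass.

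The transcription factors gave a mixed picture, read against 14.3% higher and 11.2% lower over all tested genes. In the group of EGR, NR4A, KLF and other early genes 15 of 20 rose and 5 did not pass (median log2 fold change 0.73). Myc led, from 6.71, 8.79 and 9.14 to 49.5, 48.9 and 52.4 normalized CPM (2.61, SE 0.093). Egr2 had 38.3, 31.4 and 33.7 with DMEM and 106, 104 and 106 with rmGM-CSF (1.62). Egr1 had 4.87, 4.87 and 4.69 and 10.1, 8.69 and 9.07 (0.95). Both rose beside their corepressor Nab2, which had 71.2, 70.6 and 72.8 and 153, 154 and 165 (1.13). Ier3, an early gene that limits apoptosis, rose by 2.05 on the log2 scale. Nr4a1, Nr4a2, Klf2, Klf10 and Btg2 did not pass. Of 14 AP-1 genes 9 rose and 1 fell. Maff went from 2.94, 3.18 and 2.22 to 27.4, 30.9 and 27.1 normalized CPM (3.36). Jdp2, a partner that represses AP-1, went from 7.86, 7.48 and 9.01 to 40.6, 45.02 and 43.4 (2.41). Junb went from 157, 179 and 170.5 to 429.8, 415 and 460.3 (1.36). Fos, the partner of the JUN proteins, went from 53.6, 51.5 and 50.4 to 104, 118 and 113.9 (1.11). All stimulated values of these genes were above all DMEM values, and Fosl1 rose at least 10.6-fold from the floor. Atf3, a stress-induced repressor, was the member that fell, from 349, 364 and 379 to 194, 192 and 219 (-0.86, SE 0.067). Jun had 107, 108 and 110.1 with DMEM and 94.99, 95.3 and 114.2 with rmGM-CSF, with overlap through mouse 116, and did not pass (-0.10, 95% interval -0.25 to 0.052). Fos was above STAT5 fl/fl in its response (log2 fold change there 0.12, adjusted p of the difference 0.000473), and Atf3 was below it (-0.20, adjusted p of the difference 0.000555).

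Of 11 tested genes known as STAT5-induced in blood cells, 6 rose in STAT5 cKO BMDMs and 5 did not pass, while 10 rose in STAT5 fl/fl. Over all tested genes 14.3% rose in STAT5 cKO and 17% in STAT5 fl/fl. The list was written with earlier results of these data known. Socs2 and Ccl17 passed the filter on low counts through libraries other than the 6 compared. The contrast of 6 with 10 thus depends in part on the filter. Cish, an inhibitor of cytokine receptors and a classical STAT5 target, had 0.184, 0.217 and 0.206 normalized CPM with DMEM and 2.25, 2.63 and 1.98 with rmGM-CSF in STAT5 cKO, against 0.273 and 0.0843 with DMEM and 149.6 and 146.4 with rmGM-CSF in STAT5 fl/fl. It rose in both (log2 fold changes 3.47 and 9.68), and the rise in STAT5 cKO was smaller by 6.21 on the log2 scale (SE 0.59, adjusted p = 3.58e-06). Socs2, a relative of Cish, had 1.06, 0.783 and 0.617 with DMEM and 0.637, 0.847 and 0.638 with rmGM-CSF in STAT5 cKO, with overlap, and did not pass (log2 fold change -0.17, 95% interval -0.96 to 0.62), whereas it went from 0.818 and 0.379 to 28.8 and 28.4 in STAT5 fl/fl. Pim1, a survival kinase, rose from 53.01, 50.3 and 49.8 to 269, 246 and 264 (2.35, against 3.60 in STAT5 fl/fl). Ccnd2, which encodes cyclin D2, rose from 8.09, 6.52 and 7.12 to 20.1, 21.2 and 24.1 (1.59 against 2.88). Both rose by less than in STAT5 fl/fl (adjusted p = 2.96e-06 and 0.0011). Bcl2l1, which encodes BCL-XL, went from 95.5, 103 and 113.5 to 234, 245 and 268 (1.26 against 1.51), a difference of -0.25 that did not pass (95% interval -0.43 to -0.059). Socs3 belongs to this list too. Its response in STAT5 cKO was smaller by 1.90 on the log2 scale than in STAT5 fl/fl (SE 0.16, adjusted p = 3.23e-07), where it went from 2.41 and 2.61 to 680.1 and 653, yet it was the gene with the smallest p-value of the whole comparison in STAT5 cKO. Socs1, a further inhibitor of cytokine receptors, rose by 1.197 (against 2.06), a call that was lost without mouse 116, and Id2, Osm, Pim2 and Ccl17 did not pass.

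Promoter windows of Socs3, which was still induced, of Cish, whose induction was far smaller than in STAT5 fl/fl, and of Bcl6, which responded in opposite directions in the genotypes (below), are given with matches to the STAT motif TTCNNNGAA in capitals, on the same build and in the same frame as above. The motif reads the same on both strands, and 8.30% of the 32851 promoters held it.
Socs3 (chr11:117969317-117969616, minus strand): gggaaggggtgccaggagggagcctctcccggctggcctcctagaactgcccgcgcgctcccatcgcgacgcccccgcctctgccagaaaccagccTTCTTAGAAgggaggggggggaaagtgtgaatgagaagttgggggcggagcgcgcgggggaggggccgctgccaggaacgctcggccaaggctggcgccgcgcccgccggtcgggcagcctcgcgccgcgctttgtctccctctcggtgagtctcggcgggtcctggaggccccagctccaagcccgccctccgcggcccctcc
Cish (chr9:107296409-107296708, plus strand): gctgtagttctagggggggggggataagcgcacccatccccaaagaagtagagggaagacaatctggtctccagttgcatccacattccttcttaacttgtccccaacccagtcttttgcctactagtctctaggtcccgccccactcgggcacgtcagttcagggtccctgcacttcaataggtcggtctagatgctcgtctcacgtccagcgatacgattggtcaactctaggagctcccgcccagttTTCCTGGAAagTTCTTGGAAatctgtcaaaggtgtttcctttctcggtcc
Bcl6 (chr16:23988803-23989102, minus strand): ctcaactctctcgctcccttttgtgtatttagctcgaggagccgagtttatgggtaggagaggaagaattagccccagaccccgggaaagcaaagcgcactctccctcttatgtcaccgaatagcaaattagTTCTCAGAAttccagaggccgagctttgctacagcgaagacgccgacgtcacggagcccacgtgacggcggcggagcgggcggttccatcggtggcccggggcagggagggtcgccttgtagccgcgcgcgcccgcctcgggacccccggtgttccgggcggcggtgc
The Socs3 window held 1 match, the Cish window 2 and the Bcl6 window 1. For Bcl6 the RefSeq table has 2 starts, and the first listed is shown. The Socs3 window lies inside the span over which that gene was counted (117966079 to 117970047). Its RefSeq start is thus downstream of the 5′ end of that span.

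**Figure D2:**
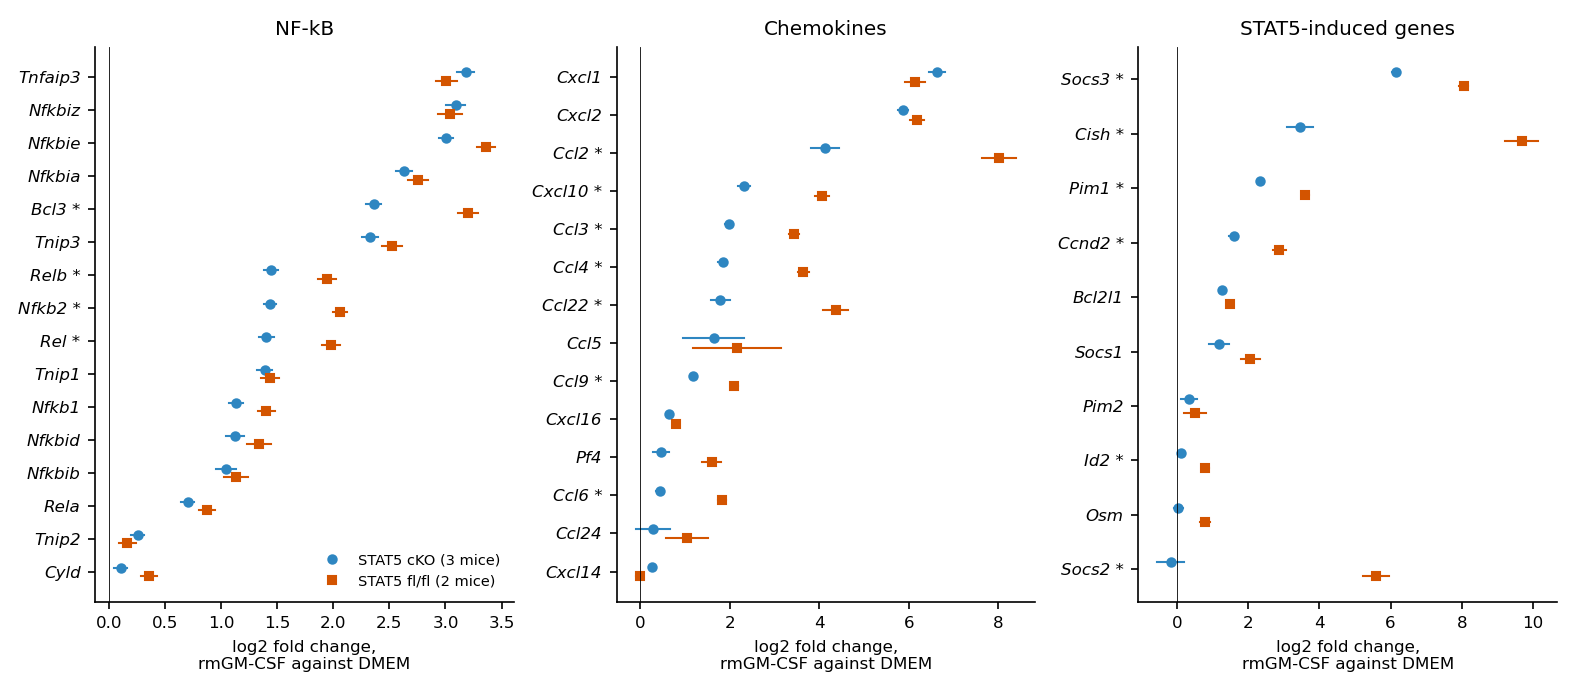
Log2 fold change of rmGM-CSF against DMEM for the tested genes of 3 lists, in STAT5 cKO (circles, 3 mice) and STAT5 fl/fl (squares, 2 mice), with bars of 1 standard error from the fit. An asterisk marks genes whose response differed between the genotypes (adjusted p under 0.01), and 5 chemokines with a group at or under 3 counts are left out. Tnfaip3, Nfkbiz, Cxcl1 and Cxcl2 lie close in both genotypes, while Ccl2, Ccl22, Cish and Socs2 lie far apart.

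Genes of survival and metabolism rose in part, where 14.3% of all tested genes were higher and 11.2% lower. Of 16 genes of the PIM and BCL2 families 11 rose and 1 fell. Bcl2, the founding inhibitor of apoptosis of the family, went from 13.05, 12.01 and 12.1 to 31.9, 29.7 and 29.9 normalized CPM (1.30). Mcl1, a relative at far higher levels, went from 1091, 1043 and 1110.1 to 1482, 1568 and 1514 (0.49). The death-promoting Bbc3, which encodes PUMA, fell from 32.0, 30.4 and 30.5 to 17.2, 15.8 and 16.2 (-0.91), and Bmf, which is not among the 16, fell as given above (-2.55), whereas Bcl2l11 (0.42), Bid (0.60), Pmaip1 (0.51) and Bak1 (0.31), which also promote death, rose. The near-identical genes Bcl2a1a, Bcl2a1b and Bcl2a1d were higher too, but reads may be split uncertainly among them. Bcl2a1a, which is counted among the 11, passed the filter on low counts only through libraries other than the 6 compared. ATF4 and its targets in amino acid supply rose in 15 of 20 cases (median log2 fold change 0.56). Atf4 itself went from 221, 239.6 and 249 to 409.5, 419 and 425 (0.82). Chac1, which degrades glutathione, went from 1.24, 1.96 and 3.13 to 14.5, 20.9 and 26.3 (3.29), with mouse 116 highest and mouse 114 lowest in both treatments. The amino acid transporter Slc7a5 went from 6.16, 6.05 and 7.33 to 17.6, 20.9 and 20.9 (1.5997). Ribosome biogenesis genes rose in 18 of 35 cases by small amounts (median 0.27), up to Rrs1 (0.97) and Nop58 (0.79). In the cholesterol pathway 9 of 24 genes rose and 1 fell. Idi1, an enzyme of isoprenoid synthesis, went from 2.53, 2.48 and 1.93 to 4.36, 5.57 and 4.92 (1.09), and Sqle (0.87) and Cyp51 (0.82) rose, while Dhcr7 was lower (-0.46). The median of the list was 0.30 in STAT5 cKO and 0.31 in STAT5 fl/fl. The glucose transporter Slc2a1 rose from 33.4, 35.1 and 36.01 to 102, 104 and 100.5 (1.55), and 6 of 19 genes of glucose uptake and glycolysis were higher and 2 lower. Of 13 genes of fatty acid synthesis 1 was higher, and of 34 lysosomal genes 3 were higher and 3 lower, near or under the shares among all genes.

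Proteins of the cell surface and of the matrix were represented among the increases, which took in 14.3% of all tested genes. Cd40, a costimulatory receptor, went from 2.48, 1.87 and 2.55 to 20.5, 19.7 and 20.6 normalized CPM (3.15, SE 0.16). Icosl, the ligand of ICOS on T cells, went from 31.4, 29.2 and 30.6 to 249.8, 229 and 219 (2.94). Cd86, a ligand of CD28, went from 18.7, 17.4 and 20.5 to 51.02, 45.3 and 54.4 (1.41). Of 14 tested genes of MHC class II presentation and costimulation 8 rose and 6 did not pass. The MHC class II genes themselves moved little, as H2-Ab1 (0.36, adjusted p = 0.0081) passed and H2-Aa (0.29) and Cd74 (0.23, adjusted p = 0.0364) did not. These 3 genes were highest in mouse 116 and lowest in mouse 115 under both treatments. Among integrins, matrix proteases and receptors 12 of 23 rose, with Mmp13 (2.08), Mmp14 (2.05), Itga5 (1.69), Mmp9 (1.21) and Cd44 (1.01) at 2-fold or more. The urokinase gene Plau went from 149.99, 180.0 and 179.6 to 362, 413 and 439 (1.25). Its receptor gene Plaur went from 31.5, 31.0 and 36.8 to 165, 171 and 194 (2.42). Ligand and receptor thus rose together, with no overlap between the treatments. Csf1, which encodes M-CSF, rose from 11.2, 10.1 and 8.40 to 43.8, 42.9 and 39.01 (2.09), while its receptor gene Csf1r had a log2 fold change of 0.041 (95% interval -0.065 to 0.15). Hbegf, a ligand of the EGF receptor, was induced from 0.459, 0.783 and 0.782 to 3.33, 3.52 and 4.28 (2.43). Tlr2, a sensor of bacterial lipoproteins, went from 173, 202 and 219 to 809, 972 and 909 (2.18). Ccr1, a receptor of CC chemokines, went from 3.26, 3.48 and 3.83 to 20.6, 23.2 and 23.6 (2.67). Tlr7 (-0.38), Tlr8 (-0.43), Tlr9 (-0.29), Cxcr4 (-1.04) and Cxcr3 (-0.73) were lower. Of the scavenger receptor genes, Msr1 rose by 1.495 on the log2 scale, from 212, 212 and 251 to 600.1, 639 and 660.5 normalized CPM. Olr1 rose by 5.09, from values near the floor (0.138, 0.348 and 0.206) to 5.15, 11.99 and 7.21, with mouse 115 the highest after stimulation.

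Regulators of signalling, RNA stability and cell cycle were split. Of 24 genes of the receptor, its kinases, adaptors and STATs 14 rose and 10 did not pass. The kinases Fgr (1.63) and Jak2 (1.23) rose, and Stat3 went from 135, 137 and 138 to 252, 266 and 277 normalized CPM (0.96). Of 5 regulators of mRNA decay, Zc3h12c (2.44), Zc3h12a (1.97) and Zfp36 (1.504) rose, Zfp36l2 fell (-0.58) and Zfp36l1 did not pass. Of 14 tested genes of the MYC network and D-type cyclins 4 rose, 4 fell and 6 did not pass. Over all tested genes 14.3% rose and 11.2% fell. Myc rose, and its antagonists Mnt (-1.003), Mxd4 (-0.79), Mxd1 (-0.59) and Mxi1 (-0.52) fell. Ccnd1, the gene of cyclin D1, rose from 38.3, 43.3 and 38.8 to 99.8, 99.0 and 123 (1.41), and of 20 genes of S phase and mitosis 2 were higher and 5 lower, where 14.3% and 11.2% of all tested genes were. Of 12 p53 targets 4 rose, with Gadd45b (1.71) and Cdkn1a (1.64) in the lead, and 4 fell, with Trp53inp1 (-1.52) the most. Among lineage factors of macrophages and dendritic cells 9 of 25 rose and 5 fell. The C/EBP factors were divided. Cebpd had 16.95, 18.5 and 17.3 normalized CPM with DMEM and 53.6, 55.3 and 56.1 with rmGM-CSF (1.65). Cebpb rose from 43.3, 54.6 and 44.3 to 129, 150.4 and 117 (1.48). Cebpa fell from 122, 184 and 154 to 61.4, 75.7 and 66.97 (-1.16). The largest increase in the list was that of Zbtb46. This marker of dendritic cells rose from 0.643, 0.870 and 0.535 to 2.89, 2.23 and 2.36 (1.85) and accounted for most of the sum of that marker list with rmGM-CSF. Of 31 interferon-stimulated genes 11 rose and 1 fell, led by Cxcl10, Gbp2 (1.79), Gbp3 (1.79), Gbp7 (1.77) and Irf1 (1.65). Of 11 polarization genes 4 rose in STAT5 cKO and 8 in STAT5 fl/fl, where 14.3% and 17% of all tested genes rose. Arg1 is among the 11, with 0 counts in the 6 STAT5 cKO libraries and at most 1 in those of STAT5 fl/fl. It passed the filter through other libraries. Nos2, inducible nitric oxide synthase, rose from values near the floor (0.138, 0.261 and 0.247) to 1.08, 2.85 and 2.75 normalized CPM (3.33). Mouse 114 was the lowest after stimulation. Tgm2, transglutaminase 2, rose from 143, 150.4 and 183 to 466, 464 and 568 (1.65). The groups that follow are read against 14.3% higher and 11.2% lower over all tested genes. Receptors for other cytokines were 4 higher and 1 lower of 10, lipid-handling genes 6 and 3 of 15, Toll-like receptors and co-receptors 4 and 3 of 13, chemokine receptors 5 and 2 of 8, and growth factors and plasminogen genes 9 higher of 12.

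**Figure D3:**
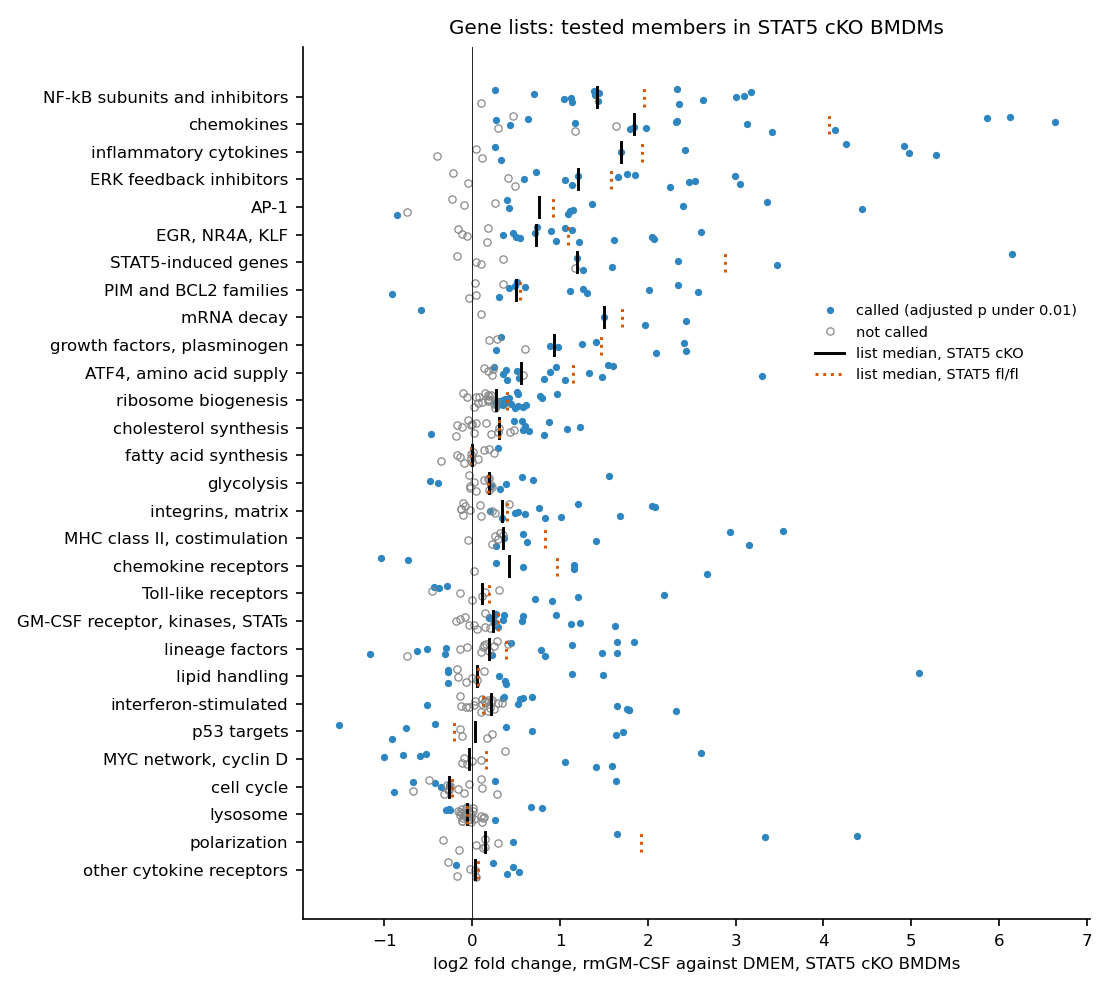
Log2 fold change in STAT5 cKO BMDMs of each tested member of 29 gene lists (filled, called at an adjusted p under 0.01, open, not called), with the list median in STAT5 cKO as a solid bar and in STAT5 fl/fl as a dotted bar. Fitted values are shown, also for genes near the floor of detection. NF-kB genes, chemokines and inflammatory cytokines have medians above 1.4, and lysosomal and fatty acid genes have medians near 0.

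The same treatment in STAT5 fl/fl BMDMs, which share no library with the comparison above, changed 4014 genes, 2215 higher (17%) and 1799 lower (13.8%). Of the genes called in STAT5 cKO, 2644 were called in the same direction in STAT5 fl/fl, which is 79.8% of the STAT5 cKO calls and 65.9% of the STAT5 fl/fl calls. Across the 13005 tested genes, which are not independent replicates, the log2 fold changes of the genotypes correlated with a Pearson r of 0.80 and a Spearman rho of 0.79. The difference between the genotypes was tested for each gene as an interaction, and 526 genes passed, 4.04% of those tested. At an unadjusted p under 0.05 the number was 2109. Of the 3314 genes called in STAT5 cKO, 353 differed, for 1711 the 95% interval of the difference lay within 0.5 on the log2 scale either way, and for 1250 neither held, so that a difference of that size can be neither shown nor bounded with 3 and 2 mice. Where a response differed it was more often the smaller in STAT5 cKO. Among genes that rose, 200 rose less and 55 rose more than in STAT5 fl/fl, and among genes that fell, 73 fell less and 25 fell more. Of 618 genes that rose by more than 2-fold in STAT5 fl/fl, 478 also rose in STAT5 cKO. Over all 618 the median log2 fold change was 1.70 in STAT5 fl/fl and 1.09 in STAT5 cKO. Those genes were chosen by their size in STAT5 fl/fl, so the medians are a description. Calls in 1 genotype were seldom backed by the interaction. Of 650 genes called in STAT5 cKO and not in STAT5 fl/fl 46 passed it, and of 1350 called in STAT5 fl/fl and not in STAT5 cKO 172 did.

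**Figure D4:**
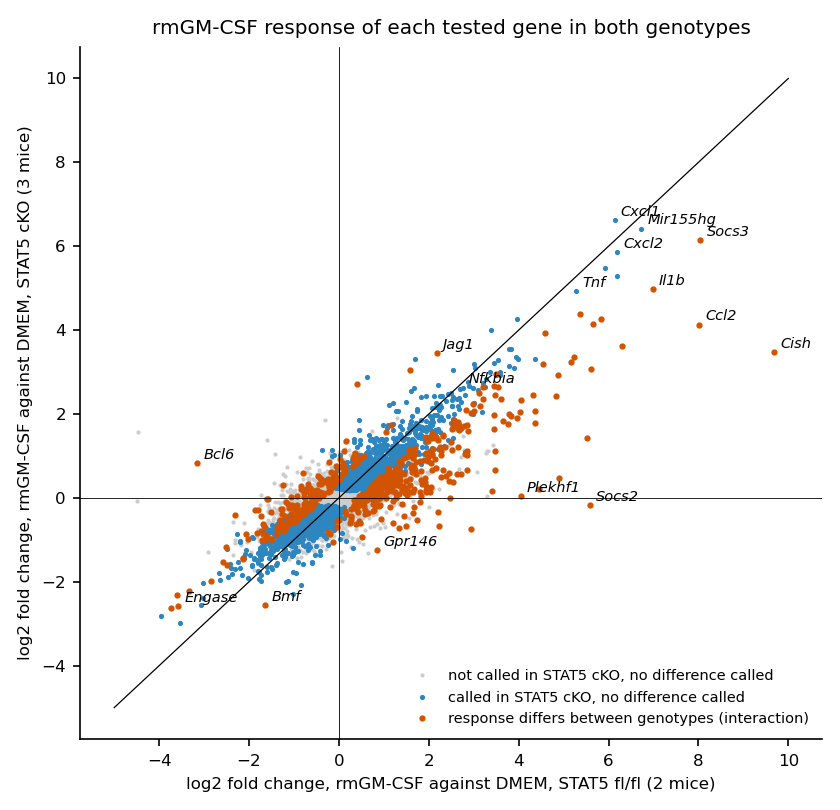
Log2 fold change of rmGM-CSF against DMEM in STAT5 fl/fl (x axis, 2 mice) and STAT5 cKO BMDMs (y axis, 3 mice), 1 point per tested gene, with a line where the responses are equal. The 115 genes with a group at or under 3 counts are left out. Most called genes lie along the line, the genes whose response differed lie mostly between the line and the x axis, and Bcl6 lies in the upper left, away from the other genes whose response differed.

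Several responses to rmGM-CSF were lost or greatly reduced in STAT5 cKO BMDMs. Plekhf1, an endosomal protein, had 2.11, 3.001 and 2.39 normalized CPM with DMEM and 2.50, 2.27 and 3.13 with rmGM-CSF in STAT5 cKO, against 2.64 and 2.23 with DMEM and 41.4 and 38.9 with rmGM-CSF in STAT5 fl/fl. The 3 stimulated STAT5 cKO libraries overlapped the unstimulated ones, and the difference between the responses was -3.99 on the log2 scale (SE 0.25, adjusted p = 1.24e-08). Cd274, which encodes PD-L1, rose from 71.2, 67.5 and 66.6 to 75.2, 82.5 and 90.3 in STAT5 cKO (log2 fold change 0.27) and from 98.0 and 82.1 to 366 and 377 in STAT5 fl/fl (2.05). The beta chain of the GM-CSF receptor showed the same pattern. Csf2rb reached 689, 688 and 781 normalized CPM with rmGM-CSF in STAT5 cKO (0.29) and went from 617 and 617 to 1659 and 1679 in STAT5 fl/fl (1.44, adjusted p of the difference 5.59e-08). Csf2rb2, whose sequence is close to that of Csf2rb so that reads may be assigned uncertainly, had 0.15 and 0.76 (adjusted p of the difference 0.000163), and Csf2ra 0.20 and 0.30 (0.789). Il4ra, the IL-4 receptor alpha chain, rose by 0.47 in STAT5 cKO and 1.92 in STAT5 fl/fl on the log2 scale. Sav1, a scaffold of the Hippo pathway, rose by 0.34 and 1.84, and Tiam1, an activator of RAC, by 0.58 and 2.63. Hnrnpll, a splicing factor, had 0.15 in STAT5 cKO, which did not pass, and 1.82 in STAT5 fl/fl. Cdkn1a, an inhibitor of the cell cycle, rose by 1.64 and 3.45. The test of the difference passed for each of these genes (adjusted p = 1.24e-08, 1.08e-08, 1.77e-08, 1.24e-08 and 1.24e-08). For Cdkn1a the levels with DMEM were 147, 152 and 159 normalized CPM in STAT5 cKO and 79.4 and 78.7 in STAT5 fl/fl, so the genotypes did not overlap before stimulation. Among 19 tested chemokines 9 responses differed and all 9 were smaller in STAT5 cKO. Over all tested genes 526 of 13005 (4.04%) differed, 342 of them with the lower log2 fold change in STAT5 cKO. Ccl2 went from 0.318 and 0.716 to 114.4 and 159 in STAT5 fl/fl, Ccl7 rose there at least 488-fold to 50.9 and 77.3, and Ccl3 and Ccl4 rose by 3.44 and 3.65 on the log2 scale. Ccl12, Ccl22, Cxcl10, Ccl9 and Ccl6 were the others. For Cxcl1 and Cxcl2 the differences were 0.50 (95% interval -0.11 to 1.10) and -0.32 (-0.73 to 0.090), and with rmGM-CSF the STAT5 fl/fl libraries had 86.2 and 95.9 and 228 and 256 normalized CPM, below the STAT5 cKO libraries given above. Neither difference passed (adjusted p = 0.465 and 0.482). For Tnf the difference was -0.36 (-0.69 to -0.035) and did not pass (adjusted p = 0.236), and for Il1b it was -2.01 (-2.46 to -1.57) and passed (adjusted p = 4.35e-06).

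In the opposite direction stood genes that rmGM-CSF lowered in STAT5 fl/fl and not, or less, in STAT5 cKO. Bcl6 (ENSMUSG00000022508, chromosome 16, 23965052 to 23988852 of GRCm38), a transcriptional repressor, rose from 153, 157 and 143 to 263, 265 and 276 normalized CPM in STAT5 cKO and fell from 139 and 153 to 16.5 and 16.5 in STAT5 fl/fl. The genotypes overlapped with DMEM and were far apart with rmGM-CSF, and the difference of the log2 fold changes was 3.97 (SE 0.11, adjusted p = 9.62e-14), the smallest p-value of all interactions. Kcnj2, a potassium channel, did not pass in STAT5 cKO (-0.021, 95% interval -0.14 to 0.10) and went from 145 and 161 to 46.8 and 55.8 in STAT5 fl/fl. Rab7b, a GTPase of endosomes, had log2 fold changes of 0.22 in STAT5 cKO and -0.85 in STAT5 fl/fl. Gramd1b, a sterol transporter, had -0.16, which did not pass, and -1.13. Jag1 rose in both genotypes, but further in STAT5 cKO (3.44 against 2.17), and Sipa1l2 (0.85 against -0.22) and Lpin2, a phosphatidate phosphatase (0.84 against 0.090), rose in STAT5 cKO and did not pass in STAT5 fl/fl. Of 2664 genes called in both genotypes 20 moved in opposite directions, 10 of them up in STAT5 cKO and 10 down. Vegfa, with 0.32 and -0.40, was among the former, although its call and that of Rab7b in STAT5 cKO were lost in fits that left out 1 STAT5 cKO mouse. Gpr146, a G protein-coupled receptor, was among the latter, going from 70.8, 70.7 and 63.9 to 30.0, 25.7 and 31.3 in STAT5 cKO and from 69.3 and 69.5 to 126 and 125 in STAT5 fl/fl.

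**Figure D5:**
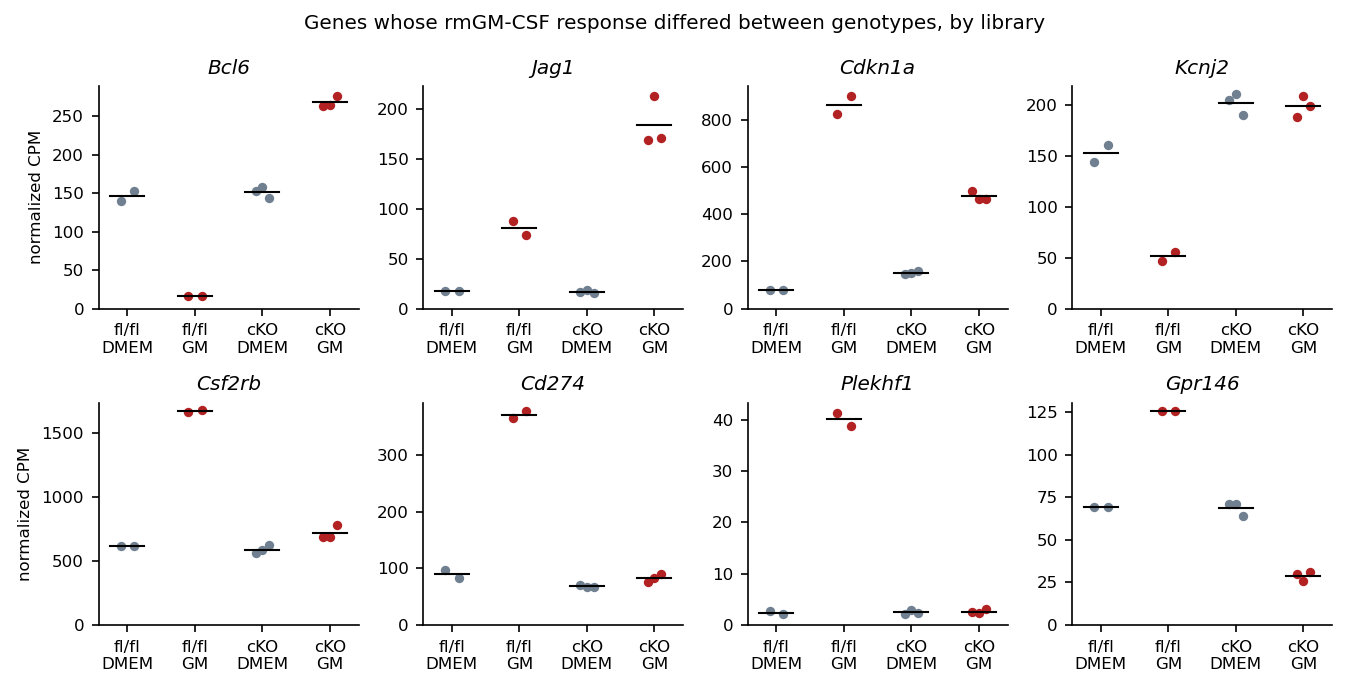
Normalized CPM by library for 8 genes whose response to rmGM-CSF differed between the genotypes, with 2 STAT5 fl/fl and 3 STAT5 cKO mice per treatment and lines at the means (GM, rmGM-CSF). Bcl6 and Kcnj2 drop in STAT5 fl/fl and stay near or above the DMEM level in STAT5 cKO, while Csf2rb, Cd274 and Plekhf1 rise in STAT5 fl/fl and little or not at all in STAT5 cKO.

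The called genes with a change of 2-fold or more in STAT5 cKO and the smallest estimated difference between genotypes were picked by that estimate, and most of the differences are not tightly bounded. They included Tnfsf14 (1.198 in STAT5 cKO and 1.19 in STAT5 fl/fl, 95% interval of the difference -0.67 to 0.68), the heat shock gene Hspa1a (2.17 and 2.17) and Rnf144b (-1.77 and -1.78, interval -0.22 to 0.24). The interval was wide for Hspa1a (-1.04 to 1.05), which had 2.02, 2.61 and 1.19 normalized CPM with DMEM and has a near-identical paralog. Others were Gm8909 (1.56 and 1.55, interval -1.22 to 1.23) and the uncharacterized transcripts B230216N24Rik (1.64 and 1.64, interval -0.79 to 0.80), 1810032O08Rik (1.08 and 1.09, interval -0.52 to 0.51) and 1110002J07Rik (2.50 and 2.49, interval -0.59 to 0.61).

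For context, the same 3 STAT5 cKO mice were also sampled with medium conditioned by 4T1 mammary tumor cells (4T1 CM), in a comparison that shares its DMEM libraries with the one above, so the values are set side by side with no test between them. Socs3 had a log2 fold change of 6.15 with rmGM-CSF and 6.44 with 4T1 CM, and Il1b 4.97 and 5.47. Tnf had 4.92 and 0.15, and Cxcl1 6.63 and 2.03.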

How the data were processed

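RNA was sequenced from BMDMs in stranded TruSeq libraries made from total RNA. The authors trimmed reads with Trimmomatic 0.33, aligned them to GRCm38 with HISAT2 2.1.0 and counted pairs per Ensembl gene with featureCounts 1.6.2 in the reverse-stranded setting, and they deposited raw counts for 55385 genes, of which 55144 were matched to a symbol. All values of CPM, fold change and p were computed from those counts.

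Genes with CPM above 1 in at least 2 of the 15 libraries (13005 genes) were fitted in 1 model with edgeR 4.0.16 in R 4.3.3, with relative log expression normalization (factors 0.945 to 1.08), the mouse as a block and treatment effects within each genotype (6 residual degrees of freedom, biological coefficient of variation 0.0668). The difference between genotypes was a contrast of the 2 treatment effects. Genes were called at a Benjamini-Hochberg adjusted p under 0.01 over all tested genes in the quasi-likelihood F test, and every adjusted p printed is from that fit. Standard errors and 95% intervals come from the covariance of the coefficients scaled by the quasi-likelihood dispersion. The fixed design had named the F statistic as their source, which is unstable near a fold change of 0. Values per library are CPM on the normalized library size. Libraries of 1 number come from 1 mouse, by the titles. The deviations from the group means of the DMEM and rmGM-CSF libraries of 1 mouse had correlations of 0.197, 0.169 and 0.182 across genes, against -0.170 to -0.028 between different mice. The floor of detection was 3 counts, or 0.131 to 0.187 CPM. A fold against a group at or under it is a lower bound, and floors cover counting error only.

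The genes named are those of the receptor and STAT5, per direction the 10 called genes with the smallest p (no overlap) and the 10 with the largest change (mean of at least 10 CPM in the higher treatment, no overlap), the members of gene lists written from textbook knowledge, and per direction the 8 genes with the smallest p for the difference between genotypes with the 8 nearest to no difference. The choice of comparison and the lists were made with earlier results of these data known. Vegfa was named after its values had been seen. Some genes that these rules name are not reported here. No set test was made. Promoter sequences are from RefSeq (GRCm38.p6). The table held an entry for 71.9% of tested genes, so no motif share per gene group was computed, and the other motifs planned are not reported. The steps were tested on simulated data. Alternatives were TMM normalization, no filter or a filter over 6 libraries, no block, DESeq2 1.42.0, a threshold of 0.05, a test against a fold change of 1.5, a fit of the 6 libraries alone, and each mouse left out.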

Additional observations from a re-analysis of the deposited data

Results flagged for a closer look

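The response to rmGM-CSF differed between STAT5 cKO and STAT5 fl/fl BMDMs for 526 genes (edgeR, interaction, adjusted p under 0.01), and the named genes among them were picked out by that test. Of these named genes 29 lost the call when 1 mouse or another was left out. Values below are the log2 fold change in STAT5 cKO minus that in STAT5 fl/fl. For some genes the levels with DMEM did not overlap between the genotypes. Examples are Gpr84 (6.62, 9.26 and 7.37 normalized CPM in STAT5 cKO, 4.82 and 5.39 in STAT5 fl/fl), Ehd1 (78.8, 71.4 and 77.8, 50.3 and 57.8) and Slc40a1 (95.8, 82.3 and 103, 161 and 170). With rmGM-CSF the genotypes overlapped for Gpr84 (107, 135 and 112.8, 116 and 131). The part that the DMEM level plays in these differences was not tested.

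Most were induced in STAT5 fl/fl and less or not detectably in STAT5 cKO. The differences were -6.21 for Cish, -5.76 for Socs2, -3.99 for Plekhf1, -1.90 for Socs3, -1.26 for Pim1, -1.29 for Ccnd2, -0.70 for Id2, -1.81 for Cdkn1a, -2.05 for Tiam1, -1.66 for Hnrnpll, -1.5001 for Sav1 and -1.23 for Zfp36l1. Among chemokines and cytokines they were -3.88 for Ccl2, -2.57 for Ccl22, -1.80 for Ccl4, -1.73 for Cxcl10, -1.46 for Ccl3, -1.398 for Ccl6, -0.93 for Ccl9, -2.01 for Il1b, -1.001 for Il1rn, -0.58 for Tgfb1 and -2.39 for Hbegf. For Ccl7 and Ccl12, which had a group at or under 3 counts, the test gave adjusted p of 2.66e-06 and 0.00574. Among surface receptors and ligands they were -1.78 for Cd274, -1.45 for Il4ra, -1.15 for Csf2rb, -0.61 for Csf2rb2, -0.82 for Msr1, -0.77 for Ccr1, -0.66 for Gpr84 and -0.51 for Slc2a1.

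Regulators of signalling and transcription with a smaller increase in STAT5 cKO were Ier3 (-1.98), Egr2 (-1.05), Errfi1 (-0.98), Bcl3 (-0.84), Spred1 (-0.72), Nfkb2 (-0.63), Junb (-0.62), Rel (-0.57), Dusp16 (-0.50) and Relb (-0.50). Bcl2a1b (-1.74) and Bcl2a1d (-1.76), paralogs between which reads may be split, the guanylate-binding genes Gbp7 (-2.002), Gbp5 (-1.57), Gbp3 (-0.82) and Gbp2 (-0.75), and Ptgs2 (-0.99) and Ehd1 (-0.56) did the same.

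A larger increase in STAT5 cKO was seen for Jag1 (1.27), Sipa1l2 (1.07), Fos (0.99), Lpin2 (0.75), Dusp6 (0.70) and Bcl2l11 (0.56), and the directions were opposite for Bcl6 (3.97), Rab7b (1.07), Vegfa (0.73) and Gpr146 (-2.102). Genes that fell in STAT5 fl/fl and less, or without passing, in STAT5 cKO were Kcnj2 (1.56), Abhd15 (1.29), Arrdc3 (1.12), Gm15513 (1.11), Slc40a1 (1.05), Engase (0.99), Gramd1b (0.97), Fam214a (0.87), Zfyve28 (0.71), Mnt (0.65) and Tlr9 (0.53). Bmf (-0.91) and Atf3 (-0.65) fell more in STAT5 cKO.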

How the results depend on the processing

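The counts of called genes moved most with a minimum change in the test. Against a fold change of 1.5, 395 genes were higher and 106 lower in STAT5 cKO, 631 and 306 in STAT5 fl/fl, and 101 differed between the genotypes. At an adjusted p under 0.05, 2282 genes were lower in STAT5 cKO and 807 differed, and 2524 were higher in STAT5 cKO. Leaving out each mouse in turn gave 1343 to 1776 genes higher and 827 to 1347 lower in STAT5 cKO, with 838 lower without mouse 114, 827 without mouse 115 and 998 without mouse 116. It gave 1259 to 2234 genes higher and 775 to 1776 lower in STAT5 fl/fl, and 216 to 450 that differed. The counts in STAT5 fl/fl rested on both of its mice, with 1337 higher and 901 lower without mouse 112 and 1259 and 775 without mouse 113, and so did the count of differing genes, at 299 without mouse 112 and 216 without mouse 113. In these fits the lone STAT5 fl/fl mouse is assumed to vary like the others. The cause of the losses was not tested apart from the smaller number of samples.

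Without the replicate block 1745 genes were higher and 1307 lower in STAT5 cKO, 2077 and 1653 in STAT5 fl/fl, and 411 differed, all within 1.5 times the paired counts. DESeq2 called 1793 and 1196, 2124 and 1562, and 584. TMM normalization, the filters and the fit of 6 libraries also stayed within 1.5 times, and the share of increases among calls was 56.2% and, with TMM, 55.0%. Of the 178 named genes called in STAT5 cKO, 16 lost their call without 1 mouse or another, with an adjusted p of up to 0.0934. They were Bak1, Bcl2a1a, Cd274, Cxcl11, Cxcl14, Cxcr3, Dhcr7, Ebi3, Gm8909, H2-Ab1, Rab7b, Socs1, Tgfb1, Tlr9, Tnip2 and Vegfa, and none changed direction. Of the 74 named genes that differed between the genotypes, 29 lost that call without 1 mouse or another. The highest adjusted p reached were 0.208 for Dusp6, 0.185 for Gbp3, 0.139 for Abhd15, 0.108 for Ccnd2 and 0.107 for Junb, and those of the others lay from 0.0118 to 0.096. These were Arrdc3, Atf3, Bcl2l11, Bmf, Ccl12, Ccr1, Dusp16, Ehd1, Fam214a, Fos, Gbp2, Gm15513, Gpr84, Id2, Mnt, Ptgs2, Rel, Relb, Slc2a1, Spred1, Tgfb1, Tlr9, Vegfa and Zfyve28. Without the replicate block 13 of the 74 lost it, namely Il1rn and, from those just named, Abhd15, Arrdc3, Ccl12, Ccr1, Dusp6, Gbp2, Gbp3, Gm15513, Gpr84, Tlr9, Vegfa and Zfyve28, with adjusted p of up to 0.153. Depth limits genes such as Ccl12 and Cish, whose STAT5 cKO values rest on few counts.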
